A study of Mus musculus with 11 samples.

Results

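Hippocampus libraries made 1 month (1 m) after cortical photothrombosis (PT) were set against libraries made 7 days (7 d) after it, in mice that received no levetiracetam (LEV). This comparison used 4 of the 11 libraries of the series: 1 library of the infarcted (left) side and 1 of the non-infarcted side at each time. Each 1 m library was compared with the 7 d library of its own side. The animals were C57BL/6N male mice. In PT, light activates the dye rose bengal and clots the vessels under the beam. Here the dye was given at 35 mg/kg, and LED light of 565 nm was shone for 30 min on a 3.5 mm circle over the left parietal cortex, so that "infarcted" names the hemisphere of the lesion and the tissue sampled was the hippocampus of either side. All 4 libraries came from lesioned mice. Ages of 8 to 10 and of 65 to 85 weeks are named for the series, and the labels do not assign an age to each library, say how many animals it pooled or tie the sides to shared animals. A naive library is given as a reference, together with the LEV pairs of libraries from both sides at 7 d and at 1 m. LEV is an anti-seizure drug, given here at 5 mg/mL in drinking water for 2 weeks, and the labels do not say when the 7 d LEV mice received it.

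Cap analysis of gene expression (CAGE) counts the capped 5′ ends of transcripts, so that each value is the level of RNA started from a gene's promoters. Levels are in CPM, reads scaled to the library total, and changes are differences of log2(CPM + 1), which understate the change of low genes. After a focal infarct, microglia and recruited macrophages proliferate, take up debris, load their lysosomes and make complement, while astrocytes become reactive around the lesion. In the following weeks debris is cleared, much of this response recedes, and a glial scar remains near the infarct. The comparison therefore asks which genes set apart from the other hemisphere at 7 d had returned to it by 1 m. A change alike on both sides cannot be told apart from anything else that separated the 1 m from the 7 d libraries, such as the batch in which they were made.

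The genes of interest are those whose change was confined to the infarcted side. A gene was counted when its log2 level changed by at least 1 from 7 d to 1 m on the infarcted side and by less than 0.5 in either direction on the other side. With 1 library per side and time this is a rule of size and not a test, and "fell" and "rose" are used below for changes past it. Of 16057 genes tested, 133 fell (0.828%) and 35 rose (0.218%) on the infarcted side alone. By the mirror rule, 8 genes fell (0.0498%) and 17 rose (0.106%) on the non-infarcted side alone. Counted without regard to the other side, 259 genes (1.61%) fell on the infarcted side, and 37 (0.23%) fell by at least 1 on both. On the other side, counted the same way, 60 genes (0.374%) fell and 59 (0.367%) rose. At the edge of the rule, Trip13 was just inside with a change of -1.001 on the infarcted side and Trim34a just outside with -0.998, while Tnfaip8l2 was just inside with -0.497 on the other side and Ppp1r36 just outside with -0.51.

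The 133 genes that fell had reached that fall in different ways. In 90 of them the infarcted side was at least 0.5 higher than the other side at 7 d and within 0.5 of it at 1 m, and these are called resolved. In 25 genes the sides were within 0.5 of each other at 7 d, and the 1 m library of the infarcted side stood at least 0.5 below its partner. The other 18 were mixed. Of the 133 genes, 118 were protein coding, 10 had only an identifier or clone name, and 10 had reads identical to those of another gene throughout. For 9 of the resolved genes the 7 d infarcted library alone lifted the mean level over the filter of 1 CPM.

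The promoters of 4 resolved genes are shown, 1 each for a secreted phagocyte protein, a phagocyte lysosomal membrane protein, a lysosomal protease and a replication-dependent histone. Each is the 250 bases before the RefSeq start (build GRCm38.p6), 5′ to 3′ on the gene's strand, and capitals mark matches to the motifs named after them. Spp1 (chr5:104434861-104435110, plus strand) holds, in order, TATAAA, the interferon-stimulated response element and the PU.1 motif GAGGAAGT. Cd68 (chr11:69666171-69666420, minus strand) holds the PU.1 core GAGGAA and the AP-1 motif TGANTCA at 2 places. Ctsd (chr7:142387828-142388077, minus strand) holds the E-box CACGTG, a motif of many lysosomal genes, at 2 places. H3c2 (chr13:23752095-23752344, plus strand) holds TATAAA from 29 to 24 bases before its start.
Spp1: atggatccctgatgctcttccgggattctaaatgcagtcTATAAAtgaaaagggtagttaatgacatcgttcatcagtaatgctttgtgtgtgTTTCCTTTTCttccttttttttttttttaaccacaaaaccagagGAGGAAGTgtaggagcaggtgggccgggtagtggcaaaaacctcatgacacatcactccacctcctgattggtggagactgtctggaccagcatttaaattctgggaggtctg
Cd68: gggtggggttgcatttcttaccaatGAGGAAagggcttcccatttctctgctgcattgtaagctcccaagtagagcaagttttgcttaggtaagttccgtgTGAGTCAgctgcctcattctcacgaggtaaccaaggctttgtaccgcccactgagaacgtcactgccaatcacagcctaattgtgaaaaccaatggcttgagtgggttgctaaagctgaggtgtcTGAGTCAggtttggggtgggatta
Ctsd: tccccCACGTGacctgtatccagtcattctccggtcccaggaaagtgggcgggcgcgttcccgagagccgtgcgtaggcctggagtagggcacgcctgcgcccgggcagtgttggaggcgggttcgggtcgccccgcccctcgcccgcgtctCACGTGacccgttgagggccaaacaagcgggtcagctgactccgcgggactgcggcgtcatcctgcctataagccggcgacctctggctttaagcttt
H3c2: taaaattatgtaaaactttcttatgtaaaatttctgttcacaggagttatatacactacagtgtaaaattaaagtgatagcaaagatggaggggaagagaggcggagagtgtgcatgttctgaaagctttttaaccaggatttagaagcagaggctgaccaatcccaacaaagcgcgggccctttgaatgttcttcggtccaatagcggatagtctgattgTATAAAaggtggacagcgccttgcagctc
Both strands were searched, and every PU.1 match is also a match to its core. Of the 90 resolved genes, 68 had a promoter in the table, which also covers 11574 of the genes tested. The AP-1 motif was in 14.7% of the 68 and in 6.05% of all those tested. TATAAA was in 23.5% against 8.83%, the interferon element in 7.35% against 3.47%, PU.1 in 5.88% against 3.28% and its core in 38.2% against 30.2%. The E-box was in 2.94% against 11.4%. These shares are counts of letters in a window of 300 bases around the start and carry no test.

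By number, the lists with the most confined falls were genes of phagocytes in damaged brain, 11 of 23 tested, and replication-dependent histones, 11 of 53. The complement list had 6 of 11, and 0.828% of all genes tested were confined falls. Spp1, which encodes osteopontin, a secreted protein of activated microglia and macrophages, was at 48.0 CPM (95% exact Poisson interval 44.8 to 51.4) on the infarcted side at 7 d and at 5.23 CPM on the other side. At 1 m it was at 3.66 CPM (2.71 to 4.84) on the infarcted side and 5.52 CPM on the other, and the naive library had 3.78 CPM. The 7 d infarcted library stood alone, and the other 3 were near naive. The change was -3.39 on the infarcted side and 0.07 on the other. The unnamed gene that overlaps Spp1 had nearly the same values, so the 2 are not independent.

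Lyz2, which encodes the lysozyme of macrophages, followed the same course: 77.8 CPM on the infarcted side at 7 d against 9.66, 11.5 and 10.6 CPM in the 7 d other-side, 1 m infarcted and 1 m other-side libraries. Cd68, a lysosomal membrane protein of phagocytes, went from 47.6 to 10.8 CPM on the infarcted side, while the other side had 8.22 and 11.5 CPM. Mpeg1, a pore-forming protein of macrophages, went from 25.3 to 4.11 CPM on the infarcted side, with 4.86 and 3.73 CPM on the other. The filter was passed by Clec7a only through the library where it is high. Clec7a, the beta-glucan receptor that marks disease-associated microglia, was at 7.43 CPM on the infarcted side at 7 d and between 0.215 and 0.561 CPM in the other 3 libraries. In each of these genes the 7 d infarcted library was the high one and the remaining 3 lay close together. The rule that picks resolved genes fixes this pattern, and the plot of levels shows only its size. Receptors and adaptors of the same cells fell too: Trem2, which senses lipids, by a change of -1.66, its signalling partner Tyrobp by -1.18, the Fc receptor chain Fcer1g by -1.19, and the surface protein Cd52 by -2.39.

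**Figure D1:**
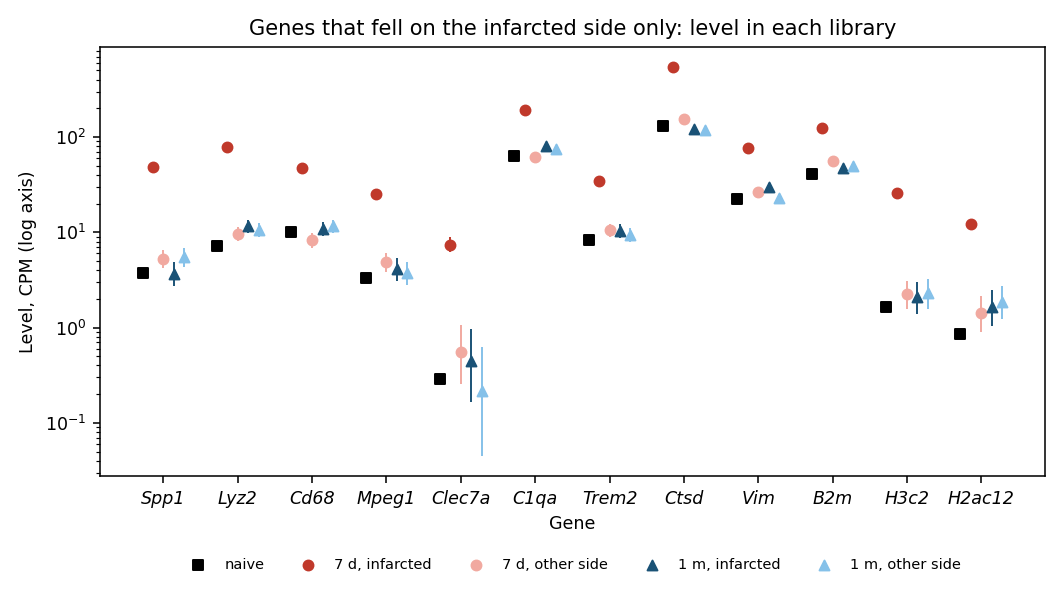
Level in CPM (log axis) of 12 genes that fell on the infarcted side alone, in the naive library (black squares) and on the infarcted (dark) and other (pale) side at 7 d (red circles) and 1 m (blue triangles). Lines are 95% exact Poisson intervals of the 4 PT libraries and cover counting error only. The 7 d infarcted library is the highest for every gene shown, such as Spp1 at 48.0 CPM against 3.66 to 5.52 CPM in the other 3 PT libraries. Among the PT libraries, the choice of resolved genes fixes this order.

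Of 23 phagocyte genes tested, 11 were confined falls, 17 fell by at least 1 on the infarcted side, and all 23 had a change below 0 there, against 9042 of 16057 genes tested. The median change was -1.48 on the infarcted side and -0.14 on the other, beside -0.05 and -0.02 over all genes tested. Some of the steepest falls of the list were not confined by the rule because the other side also declined. Mmp12, an elastase of macrophages, was at 29.9 CPM on the infarcted side at 7 d and 0.997 CPM on the other, and at 1 m only 1 and 2 reads were found. Gpnmb, a lysosomal glycoprotein of foamy macrophages, went from 43.1 to 2.62 CPM and from 4.61 to 2.51 CPM. Lgals3, the lectin galectin-3, went from 40.7 to 3.66 CPM and from 5.11 to 2.80 CPM. In these 3 genes the other side was itself above its 1 m level at 7 d. Apoe, the lipid carrier of astrocytes and microglia, hardly moved, with 1962 and 1894 CPM on the infarcted side.

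Arg1, an enzyme of alternatively activated macrophages that lies below the filter, had 78 reads (4.46 CPM) on the infarcted side at 7 d and 4, 1 and 1 reads in the other 3 libraries. Several genes that define blood-borne cells were at or near 0 in all 4: Ccr2 had 0 to 2 reads, Ly6c2 0 or 1 and Cd3e 0 to 4. A count of 0 allows up to 3 reads, or 0.171 to 0.224 CPM in these libraries. Plac8, a gene of monocytes and other leukocytes, was also below the filter but higher on the infarcted side at 7 d, at 0.857 CPM against 0 to 0.299 CPM in the other 3 libraries. Of the neutrophil and lymphocyte list 2 genes were tested, S100a8 and S100a9 of neutrophils, with 5.09 and 4.80 CPM in the 7 d infarcted library and 2.24 to 3.30 CPM in the other 3. Their changes on the infarcted side were -0.69 and -0.84, short of the rule, and the part of such cells in the falls was not tested. Ms4a7, found in border and infiltrating macrophages more than in resident microglia, was the exception on the list of 6 tested monocyte and border macrophage genes, with 8.28 CPM on the infarcted side at 7 d and 1.37 to 2.01 CPM in the other 3 libraries. Mrc1 and Cd163, markers of border macrophages, had changes of -0.37 and -0.60 on the infarcted side. In whole tissue, fewer cells of a type and less RNA per cell cannot be told apart.

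The genes of resident microglia had a smaller median change than those of their activated state. Of 17 tested, 4 were confined falls: Fcrls, Olfml3, the transcription factor Irf8 and the lysophosphatidylserine receptor Gpr34. All 17 had a change below 0 on the infarcted side, with a median of -0.84 against -0.04 on the other. Over all genes tested, 0.828% were confined falls and 9042 of 16057 were below 0 on the infarcted side. Fcrls was at 22.5 and 6.79 CPM at 7 d and at 6.35 and 6.60 CPM at 1 m on the infarcted and other side. Among the markers most used for resting microglia, the change on the infarcted side was -0.31 for the ADP receptor P2ry12, -0.15 for Tmem119 and -0.10 for Siglech. Cx3cr1, the fractalkine receptor, had a change of -0.997 on the infarcted side and -0.60 on the other, and passed the test on both sides described below. Within this list the change on the infarcted side ran from -0.10 for Siglech to -1.67 for Fcrls.

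Of 11 complement genes tested, 6 fell on the infarcted side alone, beside 0.828% of all genes tested. The median change of the 11 was -1.12 on the infarcted side and 0.36 on the other, where 0 of the 11 were below 0. C1qa, C1qb and C1qc, the adjacent genes on chromosome 4 for the 3 chains of C1q, were at 194, 166 and 193 CPM on the infarcted side at 7 d. On the other side at 7 d they had 61.2, 57.9 and 62.6 CPM. At 1 m they had 80.9, 75.9 and 86.5 CPM on the infarcted side and 74.7, 73.1 and 80.7 CPM on the other. The 1 m sides were close to each other and to the naive levels of 63.3, 67.5 and 81.3 CPM. The receptors C3ar1 and C5ar1 had changes of -1.73 and -1.40, and Itgb2, the shared chain of the integrin complement receptors, had -1.77. C4b, which reactive astrocytes also make, did not follow them: its infarcted side changed by -0.01 and was still 0.42 above the other side at 1 m.

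All 21 lysosomal genes tested had a change below 0 on the infarcted side, as had 9042 of all 16057 genes tested. The median change of the 21 was -0.67 against -0.05 on the other side. Ctsd, the protease cathepsin D, was the most abundant of the resolved genes named here: 544 CPM (534 to 556) on the infarcted side and 155 CPM on the other at 7 d, then 121 CPM (115 to 127) and 118 CPM, with 129 CPM in the naive library. Grn, which encodes progranulin, went from 83.6 to 36.8 CPM on the infarcted side, and Npc2, which moves cholesterol out of lysosomes, from 162 to 80.0 CPM. These 3 were the list's confined falls, beside 0.828% of all genes tested. Psap, which encodes the precursor of the saposins, had a change of -0.13 there.

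Interferon-response genes were lower on the infarcted side at 1 m, and antigen presentation genes were mixed. B2m, the light chain of MHC class I, went from 123 to 46.9 CPM on the infarcted side, with 56.4 and 49.7 CPM on the other. It was the list's one confined fall. A change below 0 on the infarcted side was found in 7 of 12 genes, beside 9042 of all 16057 genes tested. The MHC class II genes H2-Aa and Cd74 had changes of -0.18 and 0.32 on the infarcted side. All 13 interferon-response genes tested were below 0 on the infarcted side, with a median of -0.71 against 0.11. Bst2, which tethers virus particles, was the confined one, and Ifi27l2a had the largest change, from 49.1 to 16.2 CPM, while the other side went from 11.7 to 20.9 CPM. The chemokines Ccl12 and Ccl9 were confined falls, at 7.31 and 2.80 CPM on the infarcted side at 7 d and 2.91 and 0.673 CPM at 1 m. Cytokines Tnf, Il1b and Il6 were under 1 CPM in all 4 libraries and were not tested.

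Reactive astrocyte genes had smaller changes by their median, and Gfap kept a difference between sides. Of 20 tested, 19 were below 0 on the infarcted side, beside 9042 of all 16057 genes tested, with a median change of -0.65 against -0.03. A confined fall was found in 1 of the 20, the intermediate filament gene Vim, beside 0.828% of all genes tested. Vim was at 76.0 and 26.5 CPM at 7 d and 30.0 and 22.9 CPM at 1 m. Gfap, the astrocyte filament gene, had 678 and 352 CPM at 7 d and 405 and 282 CPM at 1 m, so that the infarcted side was still 0.52 higher at 1 m. Homeostatic astrocyte genes had a median change of -0.15 on the infarcted side.

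Of the 137 genes (0.853%) whose level was at least 1 higher on the infarcted than on the other side at 7 d, 122 were within 0.5 at 1 m and 10 were still at least 0.5 higher. Another 12 genes (0.0747%) were at least 1 lower there at 7 d. At 1 m, 7 genes (0.0436%) stood at least 1 higher on the infarcted side and 63 (0.392%) at least 1 lower. Lcn2, which encodes lipocalin-2, an iron-siderophore carrier of reactive astrocytes, was the one gene at least 1 higher at both times, with 13.1 and 1.56 CPM at 7 d and 7.70 and 1.15 CPM at 1 m. With LEV its side difference was 1.22 at 7 d and 0.58 at 1 m. The other 9 were the protease gene Klk6, the peptide carrier Slc15a3, the cytokine-signal inhibitor Socs3, the neurotrophic factor Cntf, the matrix protein Thbs4, the sphingosine phosphate receptor S1pr3, Cd48, Cd300c2 and Slc43a3. Of the 10, Socs3 had the smallest loss of its side difference, with 4.06 and 1.49 CPM at 7 d and 3.29 and 1.36 CPM at 1 m. These genes were picked by their values in the same libraries, so the counts are a description.

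**Figure D2:**
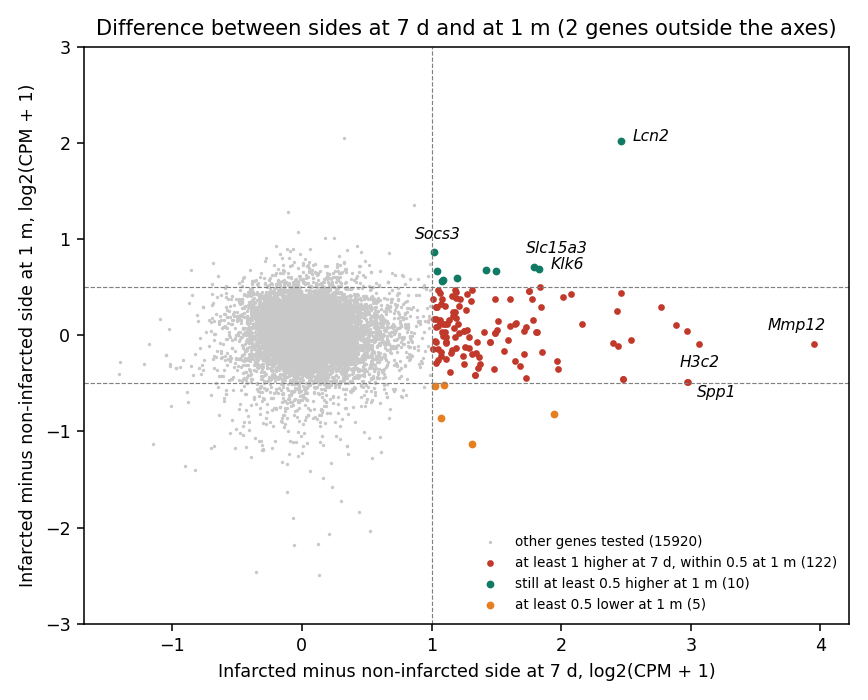
Difference between the infarcted and the other side at 7 d (x axis) and at 1 m (y axis), in log2(CPM + 1), for the genes tested; dashed lines are at 1 on the x axis and at 0.5 and -0.5 on the y axis, and 2 genes (Ttr and an unnamed gene) lie outside the axes. Of 137 genes at least 1 higher at 7 d, 122 (red) are within 0.5 at 1 m, 10 (green) are at least 0.5 higher and 5 (orange) at least 0.5 lower, Lcn2 at 2.02 being the highest.

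Replication-dependent histone genes, which are transcribed as DNA is copied, held some of the steepest falls but did not move as 1 group. H3c2 was at 26.1 CPM (23.7 to 28.6) on the infarcted side at 7 d and 2.24 CPM on the other, and at 2.09 and 2.30 CPM at 1 m. H2ac10 went from 22.2 to 2.39 CPM and H2ac12 from 12.2 to 1.64 CPM on the infarcted side. Of 53 tested, 35 had a change below 0 on the infarcted side, against 9042 of all 16057 genes tested. The median change of the 53 was -0.37 there and 0.30 on the other side. Their summed level on the infarcted side was 4370 CPM at 7 d and 4736 CPM at 1 m, and 8 passed the test on both sides as higher at 1 m and none as lower. The 11 confined falls lie between 21715763 and 23752886 (GRCm38) on chromosome 13, and that chromosome as a whole holds 45 of the 53. This list was drawn up by gene name after values had been seen. By family, 6 of 15 H2A, 3 of 14 H2B and 2 of 10 H3 genes were confined falls, and none of 10 H4 or of 4 H1 genes was. H3c3 and the pseudogene H2ac5-ps, counted here as an H3 and an H2A gene, have identical reads, so these are 1 signal counted 2 times. The H4 genes had a median change of 0.44 on the infarcted side and 0.40 on the other. Of the 53, 16 had reads identical to another gene's, which need not be a histone copy: H2bc15 shared its reads with an unnamed microRNA entry beside it. Histone copies are also nearly identical, so which copy a read came from is uncertain.

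Of 8 cell-division genes tested, 7 had a change below 0 on the infarcted side, against 9042 of all 16057 genes tested. A confined fall was found in 1 of the 8, Birc5. Birc5, the mitotic survivin gene, had 3.77 CPM on the infarcted side at 7 d and 0.574 to 1.06 CPM in the other 3 libraries, and it passed the filter only through the library where it is high. Tpx2, a spindle factor outside the list that was chosen after its values were seen, had 4.23 CPM and 1.12 to 1.81 CPM. Of 18 cell-division genes, 10 were below the filter, and all 10 were highest in the 7 d infarcted library of all 11. Of all genes tested, 10.3% were highest there, but those passed the filter and the 10 did not, so the sets are unlike. Some of the 10 rest on very few reads: Ccnb1 had 0.057 CPM there and 0 in every other library. Tk1 had 0.686 CPM there and 0.561 CPM on the other side at 7 d. Their summed level was 15.8 CPM there, 2.55 CPM on the other side at 7 d, and 1.79 and 1.87 CPM at 1 m. Mki67, the proliferation marker, had 1.71 CPM and then 0.299 CPM on the infarcted side. The 8 cell-division genes tested had a median change of -0.28 on the infarcted side and 0.04 on the other.

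**Figure D3:**
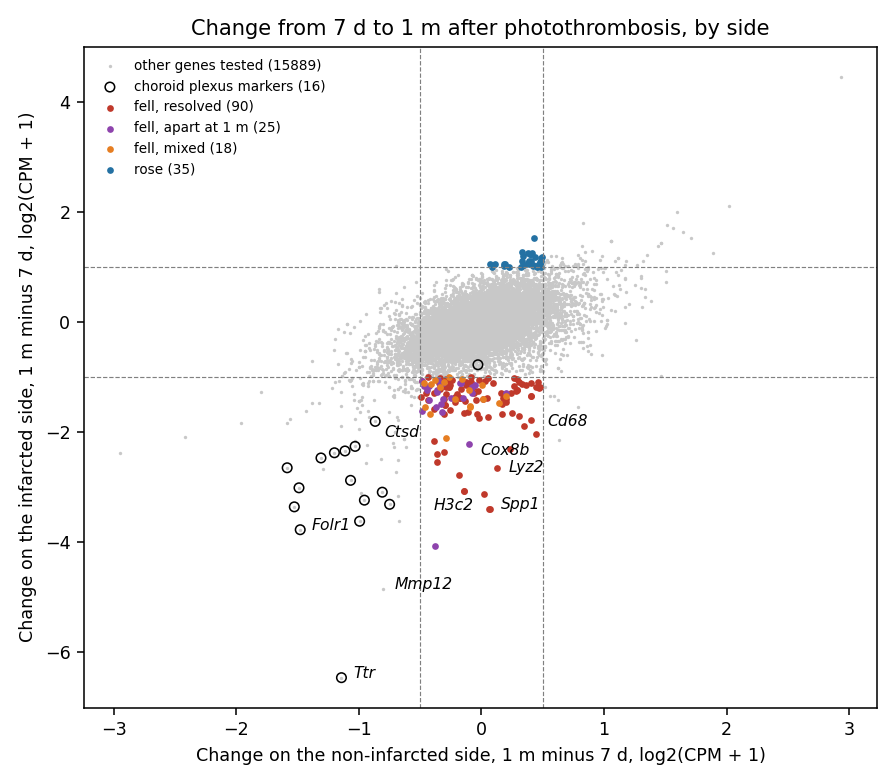
Change from 7 d to 1 m, in log2(CPM + 1), on the non-infarcted side (x axis) and the infarcted side (y axis) for each gene tested, with the confined genes in colour by class and the 16 choroid plexus markers circled; dashed lines are the limits of the rule. The 90 resolved genes (red) lie below -1 on the y axis, Spp1 at -3.39, and choroid plexus markers lie low on both axes, Ttr at -6.47 and -1.14.

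Most resolved genes ended near the naive level on the infarcted side, though a smaller share of them (86.7%) than of all genes tested. On the infarcted side 78 of 90 were within 0.5 of the naive library at 1 m and 4 of 90 at 7 d, while over all genes tested 94.6% and 83.7% were. On the other side 80 (88.9%) were within 0.5 of naive at 7 d and 81 of 90 at 1 m, near or below the shares of all genes tested, 88.7% and 94.0%. Their median level was 2.79 CPM in the naive library, 10.5 and 3.05 CPM at 7 d on the infarcted and other side, and 2.95 and 2.73 CPM at 1 m. Among the 7 libraries that the rule did not use, the infarcted side at 7 d LEV was the highest for 49 of the 90 (54.4%), against 12.9% of all genes tested. The naive library was a single one.

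The LEV pairs, which the rule did not use either, had the same direction in most resolved genes. At 7 d LEV, 82 of the 90 resolved genes were higher on the infarcted side, against 52.2% of all genes tested, and 53 were at least 0.5 higher, against 4.63%. The median side difference of the resolved genes was 0.56 at 7 d LEV and 0.11 at 1 m LEV, beside 1.30 and -0.08 without LEV, where the rule fixed it. The same rule applied to the LEV pairs gave 113 confined falls (0.704%) and 4 rises (0.0249%), and 3 genes were both among those 113 falls and among the 133 without LEV. From 7 d to 1 m with LEV the infarcted side changed below the other side in 75 of 90, against 55.6% of all genes. Meningeal fibroblast markers were also uneven at 7 d LEV, with a sum of 7701 CPM on the infarcted side and 1596 CPM on the other and a median side difference of 1.70, and the medians were 0.54 for pericyte and 0.40 for endothelial markers. The part of these tissues in the LEV values was not tested. Spp1 had 13.7 and 2.66 CPM at 7 d LEV and 6.36 and 3.17 CPM at 1 m LEV, so its side difference went from 2.01 to 0.82. For the 11 confined histone genes the side difference at 7 d LEV ran from -0.07 to 1.49, and 6, H3c3 and H2ac5-ps included, were at least 0.5 higher. Over all 53 histone genes the median was -0.05 at 7 d LEV, and the infarcted side changed by 0.46 from 7 d to 1 m LEV. The resolved genes and the confined histone genes were picked by their values without LEV, so a smaller 7 d difference in any other pair is expected from that choice. The smaller 7 d difference with LEV also rests on 1 library per side in each condition and has no test.

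**Figure D4:**
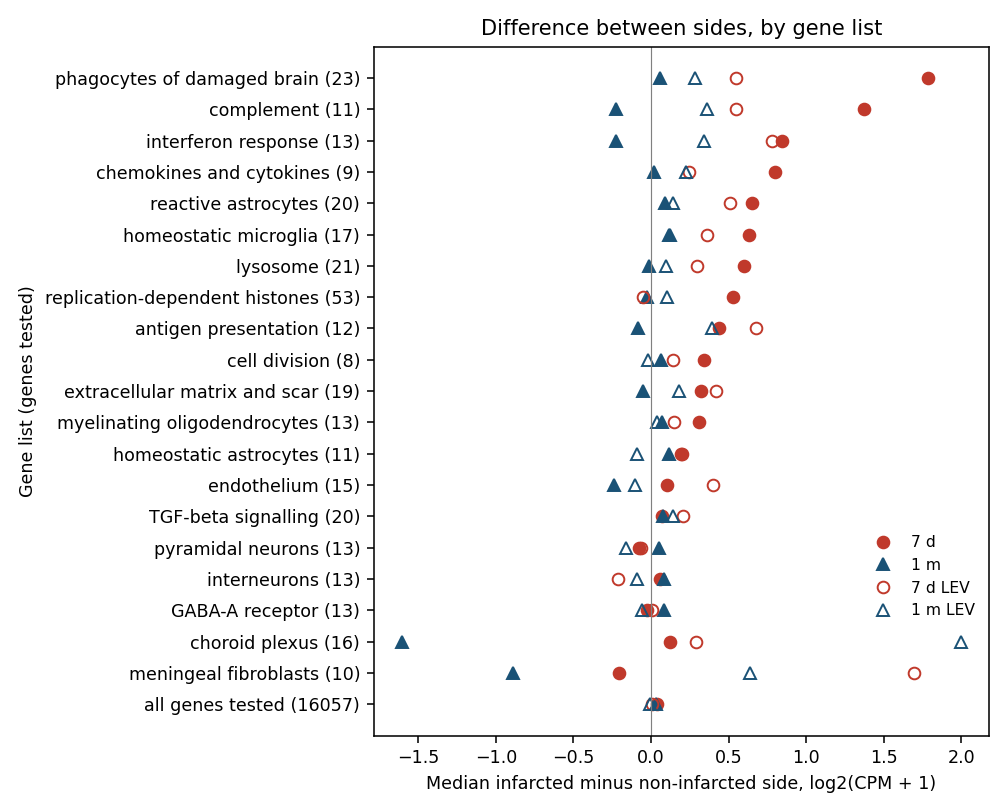
Median difference between the infarcted and the other side, in log2(CPM + 1), of each gene list at 7 d (red circles) and 1 m (blue triangles), without LEV (filled) and with LEV (open); the number of genes tested is in brackets. Phagocyte genes go from 1.79 at 7 d to 0.06 at 1 m without LEV and from 0.55 to 0.28 with it, and choroid plexus markers lie at -1.61 at 1 m and 2.00 at 1 m LEV.

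The change of the side difference was tested over both LEV and no-LEV pairs, as the infarcted minus other-side difference at 1 m against 7 d, with 2 conditions at each time. LEV was not a term, so any difference between the LEV and no-LEV pairs counted as residual spread, which is not that of replicates. By limma with Benjamini-Hochberg adjustment over 16057 genes, 0 genes passed 0.05. An unadjusted p under 0.05 was found for 877, of which 646 (4.02%) were lower and 231 higher at 1 m. If no gene changed, a share of about 0.05 of the genes would be expected there, and 877 of 16057 is close to it. The edgeR quasi-likelihood test called 0 and DESeq2 called 0, with 895 and 158 genes at an unadjusted p under 0.05. With LEV as a covariate in limma, which left 1 residual degree of freedom, 0 genes passed as well. The smallest limma p-values belonged to H3c3 (change of the difference -2.22, SE 0.33, adjusted p 0.504), whose reads were those of a histone pseudogene too, and to Lgals1 (-0.89, SE 0.14), Cyba (-0.90, SE 0.14) and Vim (-0.90, SE 0.15), each with an adjusted p of 0.504. Lgals1 encodes galectin-1 and Cyba a subunit of the phagocyte NADPH oxidase. For Spp1 the value was -2.32 (SE 0.42, adjusted p 0.607). In each of these genes the side difference was larger at 7 d than at 1 m with and without LEV. H3c3, Lgals1, Cyba and Vim were picked by their p-values in this same test, which favours such agreement. For them it is a description and not separate evidence. Dropping 1 pair of libraries leaves 1 residual degree of freedom, and then 2 to 115 genes were lower and 1 to 67 higher by limma. Without the 7 d LEV pair the counts were 115 and 67, and without the 7 d pair 83 and 1.

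The 25 genes whose sides were apart only at 1 m were of other kinds. Cox8b, a respiratory chain subunit, had 13.7 and 17.7 CPM at 7 d and 2.17 CPM (1.45 to 3.11) and 16.4 CPM (14.4 to 18.7) at 1 m, with 41.3 CPM in the naive library. Ace, the angiotensin-converting enzyme, had 42.8 and 46.0 CPM and then 15.8 and 38.6 CPM, and Msx1, a homeobox factor, had 19.8 and 17.7 CPM and then 7.55 and 16.7 CPM. In these 3 genes the 1 m infarcted library was the low one. At 1 m LEV the order was turned: on the infarcted side and its partner Cox8b had 25.9 and 7.33 CPM, Ace 40.5 and 11.5 CPM, and Msx1 12.6 and 5.81 CPM. Over the 25 genes the median side difference was -0.87 at 1 m and 0.74 at 1 m LEV, and 8 of 25 changed below the other side in the LEV pairs.

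Choroid plexus markers moved with these genes. The summed level of 16 of them was 3965 and 3683 CPM at 7 d on the infarcted and other side, 131 and 1628 CPM at 1 m, 2059 and 183 CPM at 1 m LEV, and 4601 CPM in the naive library. Ttr, the thyroxine carrier made by choroid plexus, was at 36.2 CPM in the 1 m infarcted library and 1372 CPM in its partner. The part of choroid plexus tissue in the 25 falls, or in any of the other falls, was not tested. With the genes at least 0.5 lower on the infarcted side at 1 m left out, 99 genes remained as confined falls. The confined falls of the phagocyte, complement and lysosome lists were all resolved genes, a class defined by sides within 0.5 at 1 m. This is a description by class only. Meningeal fibroblast markers were uneven as well, at 1082 and 1831 CPM at 7 d and 1642 and 4232 CPM at 1 m in sum.

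**Figure D5:**
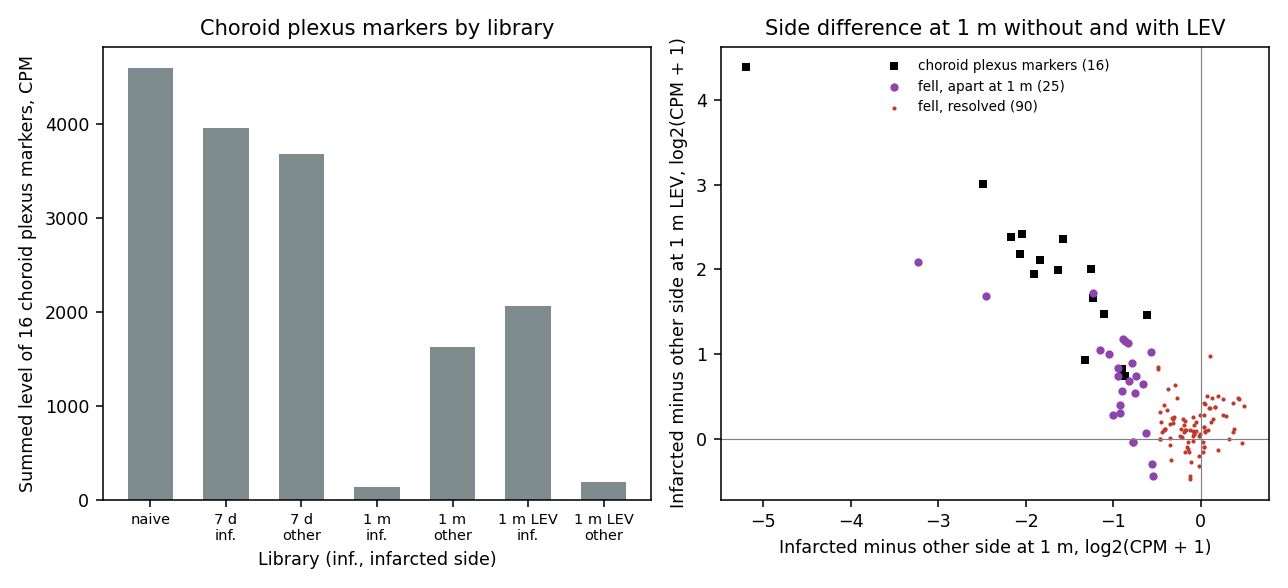
Left, summed level in CPM of 16 choroid plexus markers by library (bars, from 131 CPM at 1 m on the infarcted side to 4601 CPM in naive). Right, infarcted minus other-side difference at 1 m without (x axis) and with LEV (y axis), in log2(CPM + 1), for choroid plexus markers (black), the 25 genes apart at 1 m (purple) and the 90 resolved genes (red); the medians of the purple points are -0.87 and 0.74.

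The 35 genes that rose on the infarcted side alone were close to the limit of the rule on the other side, with a median change of 0.40 there, and only 7 of them stayed under 0.25. Mapk3, the kinase ERK1, had 41.1 and 53.0 CPM at 7 d and 100.4 and 66.9 CPM at 1 m, Dact3, a Wnt pathway regulator, 40.6 and 53.4 CPM and then 94.9 and 67.9 CPM, and Slc6a11, an astrocyte GABA transporter, 46.2 and 61.2 CPM and then 94.7 and 69.5 CPM. The infarcted side was thus the lower one at 7 d and the higher one at 1 m in each. In the naive library they had 146, 155 and 103 CPM, above all 4 PT libraries here. In the LEV pairs 14 of the 35 (40.0%) changed above the other side on the infarcted side, near the share of all genes tested, of which 55.6% changed below it. Of the 35, 9 passed the test on both sides.

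Changes alike on both sides were tested by limma with side as a covariate, which left 1 residual degree of freedom. At an adjusted p of 0.05, 437 genes (2.72%) were higher and 670 (4.17%) lower at 1 m, 6.89% in all, while DESeq2 gave 250 higher and 176 lower. Of the 133 confined falls 1 passed, the tetraspanin gene Cd9 (-0.87, SE 0.19, adjusted p 0.0481). The rule picks genes whose sides changed unlike each other, which this fit counts as residual spread, so their selection made passing unlikely. The lower genes with the largest change included Folr1, Mfrp, Clic6 and Enpp2 of the choroid plexus, of whose 16 tested markers 10 passed. The higher ones included Rny1, a small cytoplasmic RNA with 0 and 0.810 CPM at 7 d and 21.1 and 12.8 CPM at 1 m, the membrane fusion factor Stxbp3 (2.06, SE 0.13, adjusted p 0.008) and the calcium channel gene Cacna1d (1.64, SE 0.11, adjusted p 0.008). In the LEV and withdrawn libraries Rny1 was at 0.156 to 0.475 CPM, and in the naive library at 11.5 CPM. Stxbp3 had 4.86 and 4.67 CPM at 7 d and 24.3 and 22.0 CPM at 1 m, and 23.1 CPM in the naive library. With no trend in limma's variance prior 0 genes passed, and 3849 had an unadjusted p under 0.05. Without the side term, 761 genes were higher and 1207 lower. With 3 libraries the side term could not be fitted, and 1 time had a lone library that was taken to vary like the other pair. So fitted, 124 genes were higher and 226 lower without the 1 m infarcted library, and 1039 and 1789 without the 7 d other-side library.

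Neuronal lists showed no such course. Pyramidal neuron markers had median changes of 0.11 and 0.04 on the infarcted and other side, interneuron markers 0.32 and 0.22, and GABA-A receptor subunits 0.06 and 0.09. None of their genes tested was a confined fall or rise. The pyramidal markers summed to 3327, 3437, 3776 and 3634 CPM at 7 d (infarcted, other) and 1 m (infarcted, other), and markers of neighbouring neocortex, thalamus and striatum to 207 to 222 CPM, so markers of the labelled tissue were present in all 4. Library totals of the 4 were 13382623 to 17501789 reads. Myelin genes had -0.33 and -0.15, oligodendrocyte precursor genes -0.50 and -0.03, and endothelial genes -0.25 and 0.14, with no confined gene among them.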

How the data were processed

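CAGE of mouse hippocampus was deposited as 1 table of CPM per gene and library, with no header note on how it was made. The submitters' processing notes name BWA 0.7.17, HISAT2 2.0.5, DESeq2 1.20.0 and GRCm38, without their roles or settings. Every deposited CPM value was a whole number of reads to within 0.0001, so library totals and exact Poisson intervals (95%, counting error only) came from those reads. Of 22377 genes, 16057 with a mean of at least 1 CPM over 11 libraries were tested. Changes are differences of log2(CPM + 1). Both tests used limma 3.58.1 with a variance trend and Benjamini-Hochberg adjustment over all genes tested, on 4 libraries with side as a covariate and on the side differences of 4 conditions. With 1 library a group, p-values measure only the spread between these libraries. edgeR 4.0.16 and DESeq2 1.42.0 on the recovered reads were alternatives. Gene positions came from GENCODE M21 (22335 identifiers matched without version). The 31 gene lists, the comparison and the rules were chosen with earlier results of these data known. Named genes were the confined genes with the largest gap between sides, those with the largest tested change and up to 6 per list by change on the infarcted side. Other genes named were chosen after their values were seen. The fits were tested on simulated data.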

Additional observations from a re-analysis of the deposited data

Results flagged for a closer look

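Itgb2, the shared chain of the leukocyte integrins, moved in opposite directions on the 2 sides from 7 d to 1 m, with and without LEV. Its change was -1.77 on the infarcted side and 0.40 on the other without LEV, and -0.36 and 0.28 with LEV. The change of the side difference was -1.41 by limma, with an adjusted p of 0.835, so it did not pass the test. In CPM the infarcted and other side had 12.6 and 3.11 at 7 d, 2.99 and 4.45 at 1 m, 6.24 and 3.05 at 7 d LEV, and 4.66 and 3.93 at 1 m LEV. Each value is from 1 library.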

How the results depend on the processing

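No named gene or list median that was past its threshold changed sign under an alternative. The balance of calls on both sides together did turn with DESeq2, which gave more higher than lower genes. The count of 133 confined falls was 206 with a pseudocount of 0.25 and 53 with 5, 60 at a mean of at least 5 CPM, 61 with the other side under 0.25 and 38 with the infarcted side at least 1.5. The 35 rises were 57 and 10 with those pseudocounts, 7 with the other side under 0.25 and 1 with the infarcted side at least 1.5. Replacements chosen after seeing the data, the naive library for the 1 m libraries and the LEV pairs for those without LEV, gave 10 and 4 rises beside 146 and 113 falls. Leaving out a library gives these counts no value, since all 4 enter them. On both sides together, the 437 higher genes were 682 with TMM scaling, 695 with edgeR, 250 with DESeq2, 761 without the side term and 0 with no variance trend. The 670 lower genes were 176 with DESeq2, 1207 without the side term and 0 with no trend. Without 1 library, which also takes away the side term, the counts ran from 124 to 1039 higher and from 226 to 1789 lower. For the change of the side difference, dropping 1 pair gave 1 to 67 higher and 2 to 115 lower genes, where 0 passed with all pairs, and the 1 m pair was the one without which more were higher (19) than lower (2). The cause of these shifts was not tested. No paired analysis was possible because the labels carry no replicate numbers. The side term and the differences between sides pair libraries by condition and side instead. Depth limits genes near 1 CPM, where a change of a few reads moves the log2 value.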

Other observations

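A few genes stood apart at 1 m without having done so at 7 d. Lbhd2 was at 9.94 CPM on the infarcted side at 1 m and at 1.65 to 4.40 CPM in the other 3 libraries. Glp1r, the receptor of the incretin GLP-1, had 8.82 CPM there against 3.86 to 4.51 CPM, and Cbln1, a secreted synapse organizer, 11.8 CPM against 5.38 to 6.91 CPM. With LEV at 1 m the side difference was 0.47 for Lbhd2, -0.65 for Glp1r and 0.48 for Cbln1, so Glp1r had the opposite order there. Col6a3, a collagen chain, was 0.86 higher on the infarcted side at 7 d already, and had 2.97 and 1.18 CPM at 7 d and 3.21 and 0.646 CPM at 1 m.

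Sgk1, a kinase gene induced by glucocorticoids, was lower at 1 m on both sides, with 106 and 104 CPM at 7 d, 39.2 and 49.9 CPM at 1 m and 105 CPM in the naive library (change on both sides -1.23, SE 0.11, limma adjusted p 0.0107). Extracellular matrix genes, 19 tested, had a median change of -0.23 on the infarcted side and 0.17 on the other. TGF-beta signalling genes, 20 tested, had -0.05 and 0.08 and no confined gene. In the libraries made after LEV was withdrawn, at 2 months after PT, 11 of the 90 resolved genes (12.2%) were at least 0.5 higher on the infarcted side and 6 (6.67%) at least 0.5 lower, against 3.61% and 0.81% of all genes tested. The median side difference was 0.15 for the resolved genes and 0.02 for all.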
